A study of Mus musculus with 6 samples.

Results

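The 32 genes described here encode integrin subunits, the proteins that tie integrins to actin, and other adhesion receptors and ligands of lymphocytes. They were taken by symbol from a list of integrins, selectin ligands and their partners, and all 32 have a row in the table of 25865 genes. The list holds 11 integrin alpha and 5 integrin beta subunits, 3 cytoplasmic linkers and 13 other surface molecules. RNA was sequenced from ILC2s (group 2 innate lymphoid cells) sorted from the large intestine of C57BL/6 mice. A culture of 5 days preceded treatment in both groups, with 4 cytokines at 10 ng/mL apiece: the survival factors IL-2 and IL-7, and the ILC2 activators IL-25 and IL-33. The cells then received either toyocamycin for 16 h (3 samples) or its vehicle (3 samples, called Control here), so both groups are activated cells kept outside the tissue. Toyocamycin resembles adenosine and blocks ribosomal RNA processing as well as the RNase activity of IRE1, a sensor of endoplasmic reticulum stress. The sources used here give no dose. No label says whether the replicates came from different cultures or mice, and the p-values therefore cover only the variation among these samples, which may be technical.

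Integrins are receptors made of an alpha and a beta chain that bind matrix proteins or counter-receptors on other cells. On leukocytes they are held inactive until the small GTPase RAP1 brings talin, with kindlin, to the beta chain's cytoplasmic tail, and vinculin then couples talin to actin. In the gut, alpha4 beta7 binds MAdCAM-1 on vessels and alphaE beta7 binds E-cadherin on the epithelium, while alphaL beta2 (LFA-1) binds ICAMs on other cells. Selectins, which start the rolling of leukocytes, bind sugars carried by PSGL-1, the product of Selplg.

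The libraries held 22.3 M to 36.7 M reads assigned to genes. Values are normalised read counts, the reads of a gene divided by 1 scaling factor per sample, given as mean ± SD (n = 3). A level of 3 reads, taken here as the limit of detection, is 2.63 to 2.72 in Control and 2.54 to 3.96 with toyocamycin, and it covers counting error only. ILC2 genes were abundant, with Gata3 at 32470 ± 676 and Il1rl1 at 104886 ± 2034 in Control, whereas the ILC2 marker Ptgdr2 was near the limit at 5.27 ± 6.33. In Control, Cd3e (T cells) was at 35.2 ± 0.778, Adgre1 (macrophages) at 1.17 ± 1.01 and Ncr1 (NK cells) at 1.49 ± 1.38. Other markers of macrophages and dendritic cells were above Adgre1 in the Control samples, with Xcr1 at 920.2 ± 111, Lyz2 at 592.4 ± 192 and Cd68 at 448.4 ± 42.8. With toyocamycin Xcr1 (1476 ± 35.2) and Cd68 (678.7 ± 8.86) were called higher, and Lyz2 (585.8 ± 212) did not pass. ILC3 markers summed to 665 to 741 in Control and 540 to 577 with toyocamycin. Those of B cells and plasma cells summed to 632 to 741 and 313 to 387, and those of epithelial cells to 182 to 242 and 190 to 217. The 8 genes of the NK cell and ILC1 list summed to 7258 to 7652 in Control and 9534 to 10890 with toyocamycin. Nearly all of that was Gzma, called higher (7294 ± 237 and 10173 ± 683), while Prf1 was lower (193.6 ± 35.5 and 36.9 ± 6.29) and Ifng and Klra8 had no read. Fcer1a, a mast cell gene, had no read in any library. The 12 T cell markers summed to 4798 to 4998 in Control and 12807 to 14248 with toyocamycin, with 4 higher and 3 lower. Most of that sum was Cd28 (4298 ± 118 and 13134 ± 721), while Cd3e fell to 6.13 ± 3.25. The genes of the T cell receptor complex went both ways. Trac (40.07 ± 16 to 81.76 ± 2.75), Trbc2 (78.35 ± 0.969 to 118 ± 11.1) and Cd3g (148.7 ± 13.6 to 198.7 ± 31.4) were called higher. Cd3d (6.474 ± 3.61 to 0.8804 ± 1.52) and Cd247 (237 ± 8.31 to 53.81 ± 16.6) were called lower, as was Cd3e. The mast cell and basophil list rose from between 29344 and 30795 to between 43164 and 46800, nearly all of it Kit, and the 13 ILC2 markers summed to 546148 to 560463 and 436923 to 473843, with 4 higher and 8 lower. Mitochondrial mRNAs took 2.74% to 2.83% of the reads in Control and 3.78% to 3.82% with toyocamycin. Reads of Rn45s, the ribosomal RNA precursor, took 0.0903% to 0.255% and 0.524% to 0.781%, and the part of these differences in the results below was not tested.

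Toyocamycin-treated ILC2s had less mRNA of the beta2 integrin (Itgb2, 3.31-fold lower), of its partner alphaL (Itgal, 1.98-fold lower) and of the linkers kindlin-3 (Fermt3, 4.91-fold lower) and talin-1 (Tln1, 2.43-fold lower). They had more mRNA of the beta1 chain (Itgb1, 3.99-fold higher), the alphaV chain (Itgav, 2.18-fold higher) and Cd47 (2.86-fold higher). The beta7 chain, per length the most abundant integrin transcript of both groups, moved little (Itgb7, 1.16-fold lower). By limma with Benjamini-Hochberg adjustment over 16223 genes and a threshold of 0.05, 7 of the 32 genes were higher, 15 were lower and 10 did not pass. That is 68.8% of the 32, where 65.9% of all genes tested passed, 32.8% higher and 33.1% lower. The share called is therefore near that of the table as a whole. Among the 28 of the 32 genes with a mean of at least 100, 21 passed (75.0%), against 86.3% of all genes at that level. With edgeR on the recovered reads, 6 were higher and 16 lower, where 79.6% of all genes passed (38.5% higher, 41.2% lower). DESeq2 gave 7 higher and 15 lower, where 60.2% of all genes passed (30.5% higher, 29.8% lower). Called changes reached 2-fold in 4 genes that rose and 9 that fell, against 17.0% higher and 20.5% lower of all genes (37.5% in either direction). The samples of the groups did not overlap in 21 of the 32 genes (65.6%, against 69.1% of all genes, 34.2% with the treated samples above and 34.9% below). The median log2 change was −0.17, against −0.03 over all genes. In these bulk samples, fewer cells that express a gene and less of its mRNA per cell cannot be told apart.

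How the samples were scaled set the balance of small changes. Setting all sample totals equal shifted the table's median log2 change to −0.35 (from −0.03), and 5 of the 32 genes were higher and 22 lower, where 67.4% of all genes passed (24.9% higher, 42.5% lower). The share of higher among the calls was then 18.5% in place of 31.8%, and for all genes 36.9% in place of 49.7%. Quantile normalization gave 10 higher and 17 lower, where 64.9% of all genes passed (33.0% higher, 31.8% lower). Log2 changes smaller than about the shift with equal totals are therefore relative to the deposited scaling. Quantile normalization moved some genes by more, such as Cd44 (0.84 to 0.37), Itgav (1.12 to 0.69) and Itgb7 (−0.21 to −0.69). The sizes of larger changes thus also depend on the scaling. Ratios between genes of the same sample are not touched by equal totals.

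**Figure D1:**
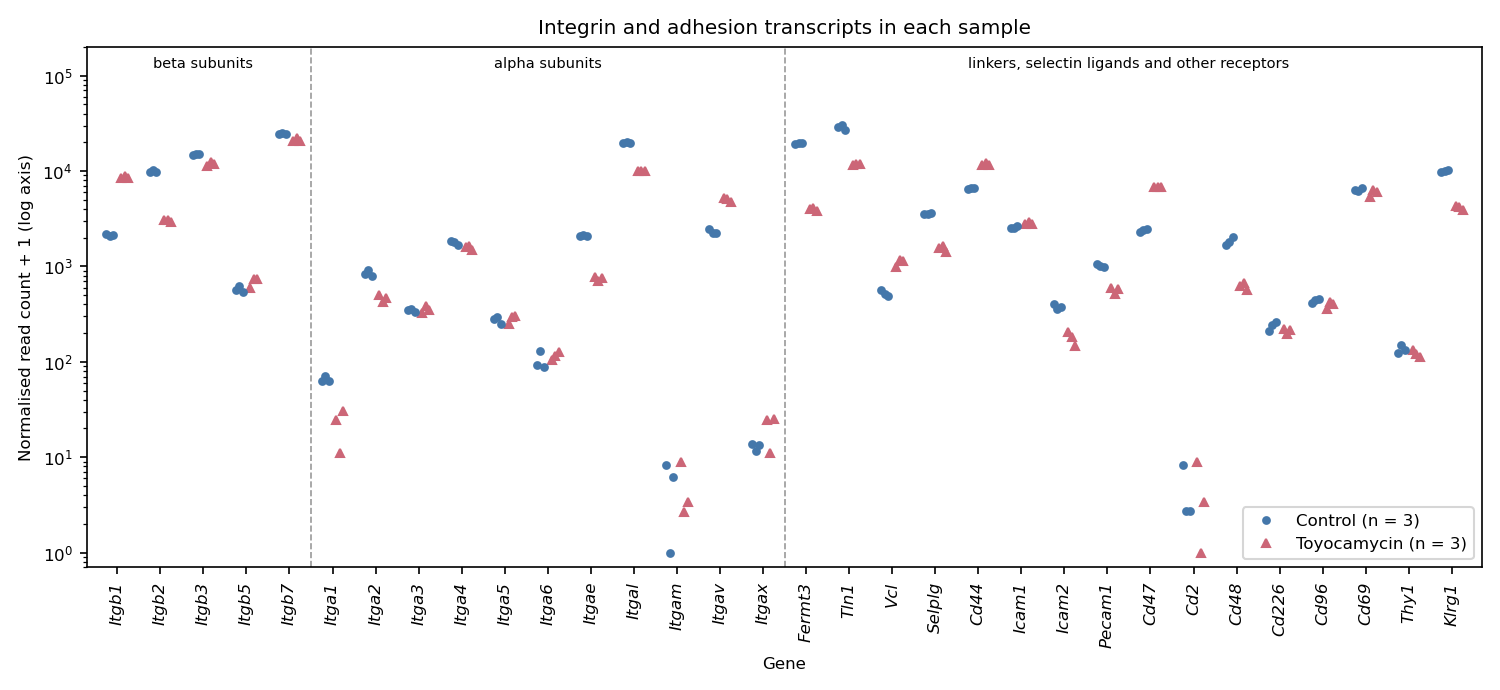
Normalised read count plus 1 (log axis) of the 32 genes, with each point 1 sample (circles Control, triangles toyocamycin, n = 3 each). Itgb1, Itgav, Cd47, Cd44 and Vcl lie higher with toyocamycin in every sample, Fermt3, Itgb2, Tln1, Itgal and Klrg1 lie lower, and Itgam and Cd2 are near 0 in both groups.

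Promoter sequences were used for 19 of the 32 genes. They are printed for the 3 that rose most (Itgb1, Cd47, Itgav) and the 3 that fell most (Fermt3, Itga1, Cd48) among the called genes with a sequence, and for Vcl, which holds the CArG box described next. Each runs 5′ to 3′ on the strand of its gene, from 250 bases before to 50 bases after a transcription start given by RefSeq (GRCm38.p6). Where a gene has several such starts, the first listed was used, so other promoters of the gene may be missed. The windows of Cd47, Itgav and Cd48 lie inside the gene, past gene starts at 49851328, 83722303 and 171681245. Capitals mark 3 motifs searched on both strands. These are GGGCGG, the GC box bound by SP and KLF factors, TGTGGT, the core of RUNX sites, and the CArG box of serum response factor. Itga1 holds none of the 3. In Vcl the CArG box is the first run of capitals and 2 GC boxes overlap each other.
Itgb1 (chr8:128685404-128685703, plus strand): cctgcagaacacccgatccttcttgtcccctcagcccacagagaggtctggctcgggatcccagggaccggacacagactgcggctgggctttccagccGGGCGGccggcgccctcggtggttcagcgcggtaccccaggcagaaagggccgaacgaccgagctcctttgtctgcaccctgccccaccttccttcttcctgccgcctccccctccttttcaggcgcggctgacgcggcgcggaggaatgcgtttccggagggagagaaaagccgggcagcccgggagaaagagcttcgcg
Cd47 (chr16:49855404-49855703, plus strand): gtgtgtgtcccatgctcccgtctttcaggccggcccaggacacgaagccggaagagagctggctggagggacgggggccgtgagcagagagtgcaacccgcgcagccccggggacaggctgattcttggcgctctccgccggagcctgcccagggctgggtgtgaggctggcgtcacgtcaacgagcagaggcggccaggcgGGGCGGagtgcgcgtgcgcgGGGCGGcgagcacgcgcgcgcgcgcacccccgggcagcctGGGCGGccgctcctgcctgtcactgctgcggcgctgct
Itgav (chr2:83724147-83724446, plus strand): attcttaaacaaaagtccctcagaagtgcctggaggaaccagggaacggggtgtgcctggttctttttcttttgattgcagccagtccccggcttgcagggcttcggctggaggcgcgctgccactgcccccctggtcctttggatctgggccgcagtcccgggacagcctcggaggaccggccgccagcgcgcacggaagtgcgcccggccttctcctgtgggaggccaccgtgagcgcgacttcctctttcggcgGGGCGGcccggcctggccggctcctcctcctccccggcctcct
Vcl (chr14:20929148-20929447, plus strand): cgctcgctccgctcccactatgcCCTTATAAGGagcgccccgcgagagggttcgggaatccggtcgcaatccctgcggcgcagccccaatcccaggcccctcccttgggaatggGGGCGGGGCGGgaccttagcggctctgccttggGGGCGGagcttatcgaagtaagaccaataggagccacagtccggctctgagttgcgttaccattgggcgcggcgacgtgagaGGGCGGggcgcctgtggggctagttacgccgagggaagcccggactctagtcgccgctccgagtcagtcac
Fermt3 (chr19:7019420-7019719, minus strand): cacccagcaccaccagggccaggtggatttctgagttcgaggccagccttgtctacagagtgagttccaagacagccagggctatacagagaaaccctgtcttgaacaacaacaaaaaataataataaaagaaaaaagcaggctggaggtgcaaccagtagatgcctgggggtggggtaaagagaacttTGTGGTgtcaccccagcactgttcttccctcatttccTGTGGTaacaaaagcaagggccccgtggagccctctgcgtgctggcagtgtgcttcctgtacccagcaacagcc
Itga1 (chr13:115101915-115102214, minus strand): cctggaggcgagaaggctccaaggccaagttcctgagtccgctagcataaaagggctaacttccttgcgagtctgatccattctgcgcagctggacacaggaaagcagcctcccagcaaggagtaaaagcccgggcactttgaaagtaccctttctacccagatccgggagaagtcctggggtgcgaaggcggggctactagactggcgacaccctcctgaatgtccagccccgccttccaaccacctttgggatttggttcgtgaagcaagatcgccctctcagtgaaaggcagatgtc
Cd48 (chr1:171681742-171682041, plus strand): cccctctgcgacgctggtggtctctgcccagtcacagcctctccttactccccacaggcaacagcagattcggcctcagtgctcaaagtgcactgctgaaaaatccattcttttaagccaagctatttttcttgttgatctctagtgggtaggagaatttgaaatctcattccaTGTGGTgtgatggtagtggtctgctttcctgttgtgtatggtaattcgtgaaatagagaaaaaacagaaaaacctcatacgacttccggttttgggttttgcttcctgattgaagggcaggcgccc

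The GC box was found in all 7 higher genes with a sequence (Itgb1, Itgav, Itgb5, Cd44, Cd47, Icam1 and Vcl), in 2 of 7 lower genes (Itga2 and Itga4) and in 3 of 5 that did not pass. It is present in 35.7% of all 32851 promoters of the table, and in 76.3% of those with a GC content of at least 58%. GC content was 58.0% to 74.0% in the promoters of the higher genes and 47.3% to 64.3% in those of the lower genes, so the motif and GC content go together here. TGTGGT was in 3 of 7 lower genes (Fermt3, with 2 copies, Cd48 and Itga4), in none of the 7 higher genes and in 2 of 5 that did not pass (16.8% of all promoters). Of promoters with a GC content of at least 58%, as in all 7 higher genes, 10.5% hold it. The CArG box was present in Vcl alone among the 19 (1.6% of all promoters). Cd226 was not among these 19 genes. A match is a description of letters, the motifs were chosen with the expression values known, and no match says only that the letters are not in this window.

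Of the 5 beta chains, Itgb1 and Itgb5 were higher and Itgb2, Itgb3 and Itgb7 lower, where 65.9% of all genes were called (32.8% higher, 33.1% lower). Itgb1 (chromosome 8, 128685654 to 128733579), the shared chain of the matrix-binding integrins, was at 2169, 2109 and 2159 in the Control samples and at 8485, 8810 and 8366 with toyocamycin. The lowest treated sample was thus far above the highest Control sample (log2 change 1.99, SE 0.051, adjusted p = 4.61e-18 by limma). Itgb2 (chromosome 10, 77530329 to 77565708), the beta chain of the leukocyte integrins, was at 9892, 10152 and 9803 in Control. With toyocamycin it was at 3076, 3033 and 2919, so each treated sample held less than any Control sample (log2 change −1.73, SE 0.05, adjusted p = 2.44e-17). Itgb3 (chromosome 11, 104608000 to 104670476), which joins alphaV in a vitronectin receptor, fell from 14994 ± 356 to 11860 ± 552 (log2 change −0.34, adjusted p = 3.95e-06). Its log2 change was −0.69 with equal totals and −0.81 with quantile normalization. Itgb3 is also a platelet gene. In Control the platelet gene Pf4 was at 3.00 ± 3.78 and Itga2b, the platelet partner of Itgb3, at 13.9 ± 1.68. The 7 platelet markers summed to 38.6 to 54.4 in Control and 18.5 to 44.9 with toyocamycin, and 1 was called, Gp1ba, which fell from 22.7 ± 8.57 to 8.47 ± 5.07. The part of platelets in the Itgb3 value was not tested.

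Itgb7 (chromosome 15, 102215994 to 102233405) was at 24509, 25105 and 24743 in Control and at 20867, 22494 and 20754 with toyocamycin, without overlap (log2 change −0.21, SE 0.05, adjusted p = 0.000699). The change was −0.56 with equal totals and −0.69 with quantile normalization. Itgb5 (chromosome 16, 33829665 to 33949338), a further partner of alphaV, was at 568.1, 620.5 and 544.2 in Control and at 596.9, 741.9 and 741.9 with toyocamycin, so the groups overlapped. Its log2 change of 0.26 (adjusted p = 0.0267) became −0.09 with equal totals (adjusted p = 0.419). The call ended with Control replicate 1 left out (0.25), Control replicate 3 left out (0.22) or either of Toyocamycin replicates 2 and 3 left out (0.21 each), and without the mean-variance trend (adjusted p = 0.109).

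Among the alpha chains 1 was higher, 5 were lower and 5 did not pass (54.5% called, against 65.9% of all genes). Itgal (chromosome 7, 127296139 to 127335137), the alpha chain of LFA-1, was at 19666, 20114 and 19511 in Control. With toyocamycin it was at 9930, 10052 and 9941, so each treated sample was well below each Control sample (1.98-fold lower, log2 change −0.99, SE 0.047, adjusted p = 5.58e-14). Itgae (chromosome 11, 73090505 to 73147449), the chain of the E-cadherin receptor also known as CD103, was at 2093, 2160 and 2072 in Control and at 781.8, 705.5 and 755.2 with toyocamycin. It was 2.82-fold lower, with no overlap between the groups (log2 change −1.50, adjusted p = 3.08e-14).

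The collagen receptor chains Itga1 and Itga2, whose starts lie 125 kb apart on chromosome 13, both fell. Itga1 was at 61.6, 70.2 and 61.4 in Control and at 23.8, 10.2 and 29.1 with toyocamycin (log2 change −1.69, SE 0.39, adjusted p = 0.000664). Itga2 fell 1.83-fold, from 852.8 ± 67 to 465.3 ± 40.3 (adjusted p = 4.05e-08). Itgav (chromosome 2, 83722303 to 83806917) was the alpha chain that rose, from 2450, 2232 and 2244 to 5211, 5150 and 4726. Its log2 change was 1.12 (SE 0.059, adjusted p = 2.91e-13), falling to 0.77 under equal totals and to 0.69 under quantile normalization.

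Itga4 (chromosome 2, 79255426 to 79333114), which joins beta7 for entry into the gut and beta1 for binding to VCAM-1, was at 1829, 1795 and 1679 in Control and at 1597, 1646 and 1472 with toyocamycin. The groups lay close together but did not overlap (log2 change −0.17, SE 0.066, adjusted p = 0.0285). That call ended when Control replicate 1 (−0.15), Control replicate 2 (−0.16) or Toyocamycin replicate 3 (−0.12) was left out, and without the mean-variance trend (adjusted p = 0.099), and the change was −0.52 with equal totals and −0.40 with quantile normalization. Exons of Itga4 overlap those of Cerkl on the other strand over 8.04% of their length, and Cerkl was at 22.3 ± 10.6 in Control. The chains Itga3 (344.1 ± 11.9 in Control, 351.5 ± 31 with toyocamycin), Itga5 (274.1 ± 23.4 and 281.6 ± 29.4) and Itga6 (101.9 ± 22.8 and 114.4 ± 11) did not pass. Itga3 and Itga6 serve laminin receptors and Itga5 the fibronectin receptor. The 95% intervals of their log2 changes ran from −0.21 to 0.27, from −0.24 to 0.31 and from −0.27 to 0.64. With equal totals Itga3 (−0.32) and Itga5 (−0.31) were called lower, while quantile normalization called Itga3 (0.41), Itga5 (0.47) and Itga6 (0.74) higher.

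The myeloid chains were scarce. Itgam (CD11b) had 7.25, 0 and 5.27 in Control and 7.92, 1.69 and 2.43 with toyocamycin, around the limit of 3 reads. Its exons share 68.7% of their length with Gm49368, whose symbol is not among the 25865 genes. Reads from the shared part cannot be told apart, and how they were counted is not stated. Itgax (CD11c) had 11.8 ± 1.15 in Control and 19.4 ± 8.01 with toyocamycin (adjusted p = 0.323, 95% interval of the log2 change −0.45 to 1.61). Macrophage and dendritic cell markers summed to 1845 to 2114 in Control and 2583 to 3056 with toyocamycin, with 2 of 11 called, both higher (Cd68 and Xcr1). In that list Adgre1 and Fcgr1 did not exceed 3 reads in any library.

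Per kilobase of exon, Itgb7 led both groups, at 8948 ± 108 normalised reads per kb in Control and 7715 ± 351 with toyocamycin. In Control it was followed by Itgb2 (3260 ± 59.6), Itgal (3009 ± 47.7), Itgb3 (2541 ± 60.4) and Itgb1 (526 ± 7.9). With toyocamycin the order after Itgb7 was Itgb1 (2096 ± 56.3), Itgb3 (2010 ± 93.6), Itgal (1518 ± 10.3) and Itgb2 (986 ± 26.5), where Itgb1 and Itgb3 lay within their spread of each other. In both groups Itga3 and Itga5 also lay within about their spread of each other. The places of Itgb2 and Itgal in Control swap when the longest coding transcript is used as the length (3350 and 3785 per kb). As a share of the 5 beta transcripts per length, Itgb2 went from 21.1% ± 0.213 to 7.59% ± 0.313 and Itgb1 from 3.41% ± 0.097 to 16.1% ± 0.237. Itgb7 stayed the major chain at 58.0% ± 0.108 and 59.3% ± 0.391, and Itgb3 made up 16.5% ± 0.225 and 15.5% ± 0.298. Of the 11 alpha transcripts, Itgal went from 74.0% ± 0.397 to 61.6% ± 0.608, Itgae from 11.3% ± 0.0696 to 6.62% ± 0.368 and Itgav from 5.29% ± 0.302 to 19.0% ± 0.794.

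**Figure D2:**
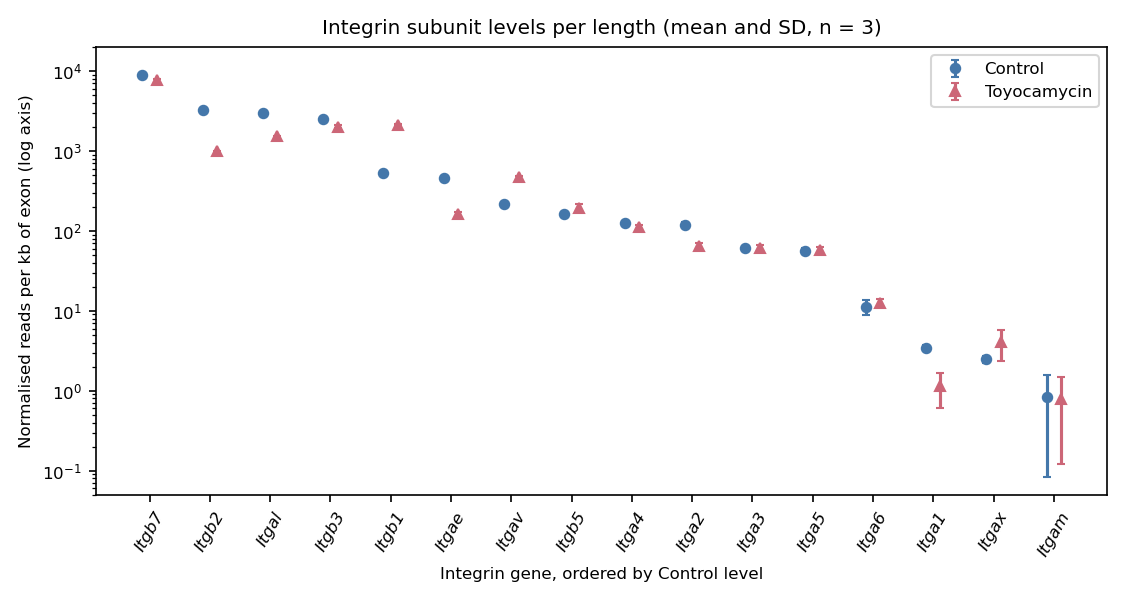
Mean normalised reads per kb of exon (log axis, bars SD, n = 3) of the 16 integrin genes, ordered by their Control level, with Control as circles and toyocamycin as triangles. Itgb7 is highest in both groups (8948 and 7715 per kb), Itgb1 moves from 526 to 2096, and Itgb2 from 3260 to 986.

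The log2 ratio of alpha to beta transcript was compared within each sample for 14 known pairs by exact two-sided permutation tests, in which 3 against 3 samples cannot give a p below 0.1. No pair could therefore pass, and the values are a description. In 13 pairs, among them those of the scarce Itgam and Itgax, the groups lay apart (exact permutation p = 0.1, adjusted p = 0.108 over the 14 pairs). Of all genes taken singly, 69.1% did not overlap either. That is not a like background for ratios, which can move with either gene, and the share over all gene pairs was not computed. The pair Itga4 to Itgb7, which makes the gut-homing receptor, overlapped, at −3.81 ± 0.069 in Control and −3.77 ± 0.055 with toyocamycin (exact permutation p = 0.5). Itgae to Itgb7 was 2.43-fold lower with toyocamycin, from −3.55 ± 0.02 to −4.84 ± 0.14. Itgal to Itgb2 stood at 0.99 ± 0.0035 in Control and 1.73 ± 0.039 with toyocamycin. Per length, Itgal was thus 92.3% ± 0.221 of Itgb2 in Control and 154% ± 4.12 with toyocamycin. The ratios of the 7 partners of Itgb1 share the Itgb1 value, which itself was 3.99-fold higher, and were lower by between 1.83-fold (Itgav) and 12.8-fold (Itga1). The ratio of Itgav to Itgb3 was 2.75-fold higher. Itgav per length was 40.9% ± 1.8 of Itgb1 in Control and 22.3% ± 0.942 with toyocamycin, against 8.47% ± 0.657 and 23.3% ± 1.68 of Itgb3.

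**Figure D3:**
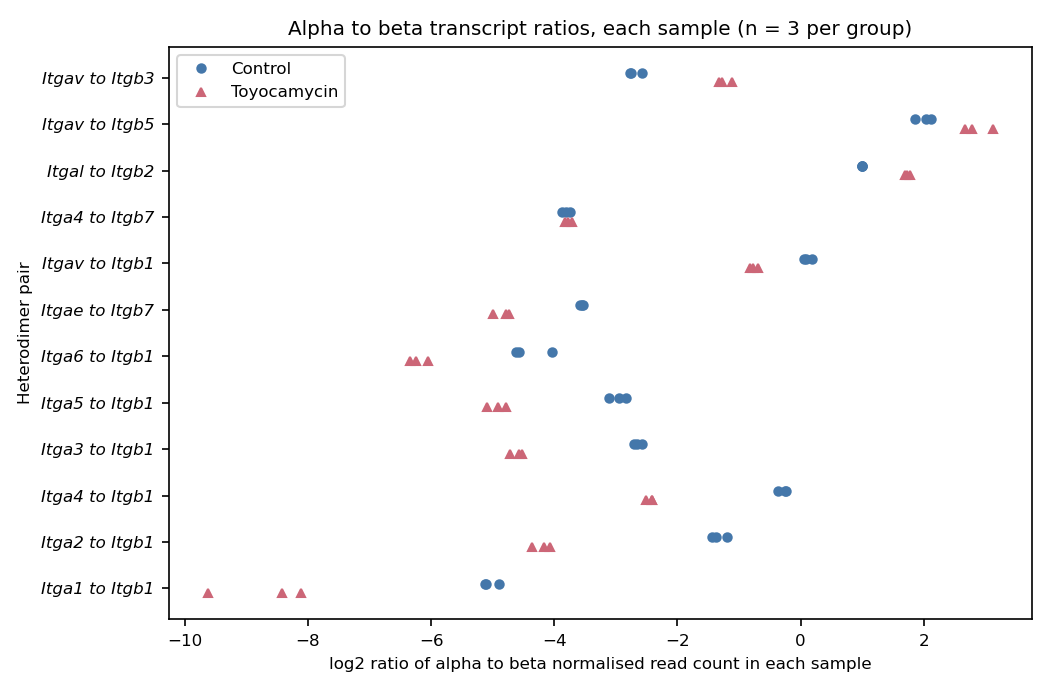
Log2 ratio of alpha to beta normalised read count in each sample for 12 heterodimer pairs, with Control as circles and toyocamycin as triangles (n = 3 each); the pairs of Itgam and Itgax with Itgb2 are left out. The groups overlap for Itga4 to Itgb7 and are apart for the others, with every Itgb1 pair lower with toyocamycin.

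The 3 linkers split. Fermt3 (chromosome 19, 6998958 to 7019469) encodes kindlin-3, the blood cell kindlin that works with talin on the beta tail and is lost in leukocyte adhesion deficiency type III. It was at 19370, 19571 and 19835 in Control and at 4044, 4088 and 3839 with toyocamycin. This was the most negative log2 change of the 32 genes (−2.30, SE 0.049, adjusted p = 4.57e-19). Tln1 (chromosome 4, 43531513 to 43562583), which encodes talin-1, was at 29086, 30593 and 26711 in Control and at 11693, 11957 and 11891 with toyocamycin. All treated samples lay below the Control samples and close to each other (log2 change −1.28, SE 0.053, adjusted p = 6.62e-15). Exons of Tln1 overlap those of Creb3 on the other strand over 3.67% of their length. Vcl (chromosome 14, 20929383 to 21033676), which encodes vinculin, moved the other way, from 569.9, 517.8 and 485.4 to 994.4, 1163 and 1140 (log2 change 1.07, SE 0.089, adjusted p = 7.12e-10), or 0.72 with equal totals. Over 25.5% of its exon length Vcl overlaps Ap3m1 on the other strand, and with the strand setting not given their reads cannot be told apart there, so the Vcl result is uncertain. Ap3m1 itself was lower, from 1758 ± 104 to 1234 ± 115.

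Of the selectin and hyaluronan receptors, Selplg fell and Cd44 rose. Selplg (chromosome 5, 113817798 to 113832528), which encodes the selectin ligand PSGL-1, was at 3513, 3529 and 3648 in Control and at 1560, 1628 and 1424 with toyocamycin. It was 2.32-fold lower in samples that did not overlap (log2 change −1.21, adjusted p = 1.68e-13). Cd44 (chromosome 2, 102811141 to 102901669), the receptor for hyaluronan, was at 6554, 6616 and 6612 in Control. With toyocamycin it was at 11518, 12201 and 11717, or 1.79-fold higher, above each Control sample (log2 change 0.84, SE 0.048, adjusted p = 1.34e-12). The change of Cd44 was 0.49 with equal totals and 0.37 with quantile normalization.

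The counter-receptors of integrins differed among themselves. Icam2 (chromosome 11, 106377656 to 106388139), a ligand of LFA-1, fell from 398.7, 357.2 and 372.1 to 203.4, 182.9 and 145.7 (log2 change −1.09, SE 0.14, adjusted p = 7.35e-07), or −0.65 with quantile normalization. Pecam1 (CD31), which binds itself on neighbouring cells and whose start lies 277 kb from that of Icam2, fell 1.79-fold from 1012 ± 39.7 to 565 ± 40.5 (adjusted p = 1.12e-08). Both are also endothelial genes. Markers of fibroblasts and endothelial cells summed to 540 to 784 in Control and 354 to 764 with toyocamycin, with 1 of 10 called, and the endothelial gene Cdh5 was at 74.3 ± 10.3 and 74.2 ± 39.4. Icam1 (chromosome 9, 21015940 to 21028814), another LFA-1 ligand, was at 2515, 2507 and 2681 in Control and at 2753, 2913 and 2783 with toyocamycin. The groups were close but apart, and its log2 change of 0.13 (adjusted p = 0.0445) turned to −0.22 with equal totals and −0.26 with quantile normalization, both called lower. The call ended when any of 5 samples was left out (0.11 to 0.15), the exception being Control replicate 3, with edgeR (0.09, adjusted p = 0.0793) and without the mean-variance trend (adjusted p = 0.115). Exons of Icam1 overlap those of Gm47079 on the other strand over 11.7% of their length, and the strand setting is not given.

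Cd47 (chromosome 16, 49851328 to 49912503) encodes a partner of integrins that also signals to SIRPA on phagocytes not to engulf the cell. It was at 2315, 2392 and 2448 in Control and at 6808, 6809 and 6814 with toyocamycin. The treated samples agreed closely and lay far above Control (log2 change 1.51, SE 0.051, adjusted p = 2.56e-16), and the change was 1.16 with equal totals. Klrg1 (chromosome 6, 122270596 to 122282833), an inhibitory receptor for cadherins that marks mature ILC2s, was at 9873, 9902 and 10290 in Control. With toyocamycin it was at 4337, 4207 and 3913, or 2.41-fold lower with no overlap (log2 change −1.27, SE 0.052, adjusted p = 5.58e-15). Transcripts of both E-cadherin receptors, Itgae and Klrg1, thus fell, while E-cadherin itself (Cdh1) was at 32.9 ± 8.37 and 29.3 ± 8.54.

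Cd48 passed, while Cd2, Cd226 and Cd96 did not. Cd48 (chromosome 1, 171681245 to 171705258) encodes a surface protein of the SLAM family that binds CD2 and CD244 in the mouse. It was at 1677, 1825 and 2039 in Control and at 627.3, 675.0 and 565.8 with toyocamycin, so all treated samples were below Control (log2 change −1.57, SE 0.084, adjusted p = 4.84e-13). Its partner Cd2 had 7.249, 1.755 and 1.755 in Control and 7.924, 0 and 2.428 with toyocamycin, near the limit of 3 reads. Cd226 (238 ± 24.9 in Control, 210.1 ± 13.5 with toyocamycin) and Cd96 (440.5 ± 21.6 and 393 ± 35.8), which compete for the nectin-like ligand CD155, did not pass. Their log2 changes had 95% intervals of −0.48 to 0.12 and −0.39 to 0.06. With equal totals both were called lower (−0.52 each).

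Cd69 and Thy1 did not pass either. Cd69, whose product holds lymphocytes in tissue by removing the S1P receptor S1PR1, was at 6263, 6143 and 6656 in Control and at 5321, 6284 and 6027 with toyocamycin. The groups overlapped (log2 change −0.12, SE 0.06, adjusted p = 0.0998), but the gene was called lower with equal totals (−0.46), with quantile normalization (−0.60), with edgeR (−0.15) and without Toyocamycin replicate 2 (−0.17). The receptor gene S1pr1 was at 191.4 ± 34.3 and 210.7 ± 18.8 (adjusted p = 0.44). Thy1 (CD90), often used to gate innate lymphoid cells, was at 134.4 ± 13.4 in Control and 121.3 ± 10.2 with toyocamycin (log2 change −0.15, 95% interval −0.54 to 0.25). It was called lower with equal totals (−0.49) and higher with quantile normalization (0.43).

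**Figure D4:**
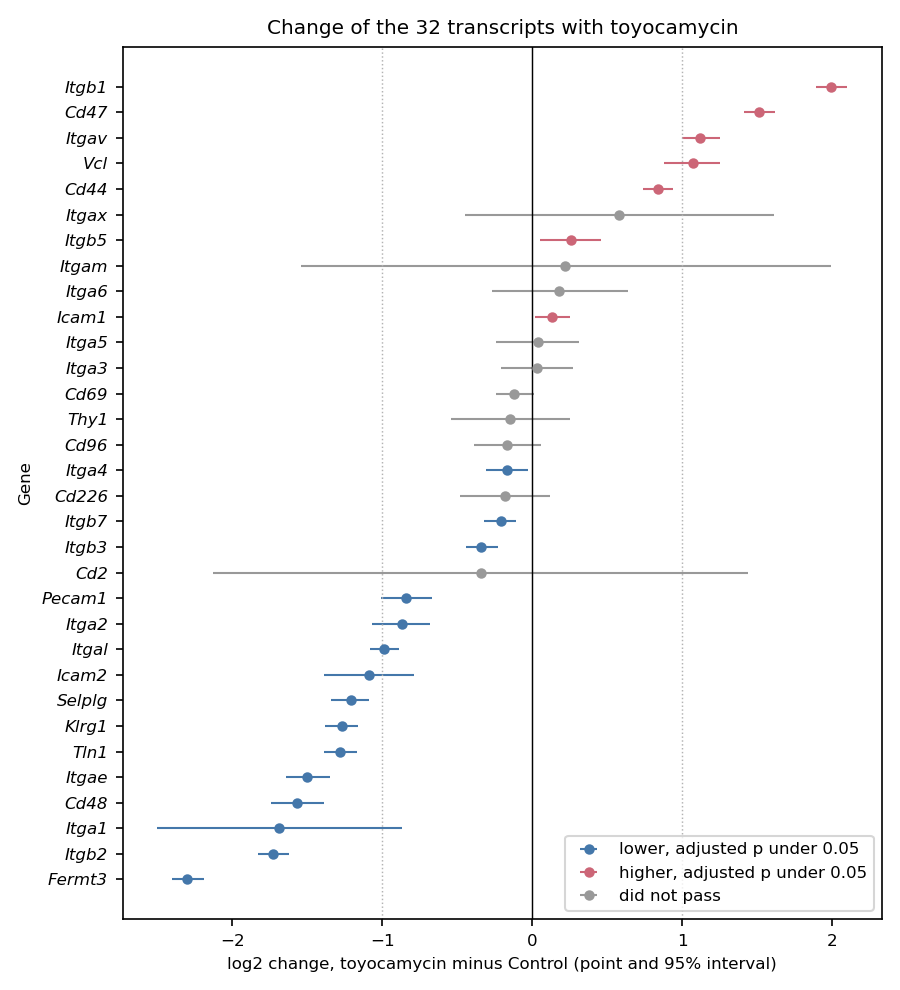
Log2 change of the 32 genes (toyocamycin minus Control, points with 95% intervals from limma), ordered by size, with dotted lines at a 2-fold change. Fermt3 (−2.30) and Itgb2 (−1.73) are at the lower end and Itgb1 (1.99) and Cd47 (1.51) at the upper end; grey genes did not pass.

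A further 128 adhesion genes that are not among the 32 were examined by 6 lists. Of the 121 tested, 36 were higher and 34 lower (57.9% called, against 65.9% of all genes), with a median log2 change of −0.02. With equal totals 24 were higher and 51 lower. In the list of integrin activation by RAP1, talin and kindlin, 10 of 27 were higher and 10 lower (74.1% called), with a median of −0.00. With equal totals 8 were higher and 15 lower, where 24.9% of all genes were higher and 42.5% lower. Quantile normalization gave 9 higher and 13 lower, where 33.0% of all genes were higher and 31.8% lower. The adaptor gene Skap1 fell 4.93-fold from 4940 ± 22.1 to 1003 ± 36.4, and Apbb1ip, which encodes the talin recruiter RIAM, fell from 3353 ± 167 to 1095 ± 20.7. The GTPase genes Rap1a (2428 ± 55.2 to 5066 ± 302) and Rap1b (5541 ± 216 to 11219 ± 476) rose, as did Rapgef2, a RAP1 exchange factor, 4.42-fold from 6965 ± 346 to 30786 ± 715. Mob1b, a partner of the MST kinases, rose 5.42-fold from 660.5 ± 28.5.

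Genes of the focal adhesion and actin linkage list were divided too, with 16 of 35 higher, 11 lower and a median of 0.17. That is 77.1% called, against 65.9% of all genes (32.8% higher, 33.1% lower). With equal totals 10 were higher and 16 lower, where 24.9% of all genes were higher and 42.5% lower. Parvg, which encodes the blood cell parvin, fell 3.92-fold from 3033 ± 43.4 to 774.6 ± 5.41, and Rsu1, whose product binds the ILK complex through PINCH, fell 3.43-fold from 1139 ± 34.9. The PINCH gene Lims1 rose from 1709 ± 66.6 to 5485 ± 139, while Ilk did not pass at 2575 ± 78.2 and 2505 ± 161. Filamin A (Flna), which competes with talin for the beta tail, fell from 38996 ± 2451 to 11962 ± 505. The adaptor gene Crkl rose 3.3-fold from 2352 ± 6.36 to 7773 ± 309. Of the 3 ERM genes, whose products tie CD44 and PSGL-1 to actin, Rdx (4642 ± 76.7 to 10667 ± 367) and Msn (44202 ± 832 to 66488 ± 2681) rose, also with equal totals (0.85 and 0.24) and quantile normalization (0.69 and 0.22). Ezr rose from 8743 ± 87.3 to 11461 ± 455, a log2 change of 0.39 that was no longer called with equal totals (0.04) and turned to −0.08 with quantile normalization.

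In the list of selectins and selectin ligand synthesis, 3 of 14 tested were higher and 5 lower (57.1% called, against 65.9% of all genes, median −0.03). Fut7, the fucosyltransferase that completes selectin ligands, fell 8.22-fold from 148.9 ± 34.6 to 18.1 ± 2.24. Spn (CD43), a mucin whose start lies 173 kb from that of Itgal, fell 3.98-fold from 11442 ± 180 to 2875 ± 55.6, and the tyrosine sulphation gene Tpst1 3.17-fold from 524.8 ± 15.5. B4galt1 rose from 8111 ± 390 to 17395 ± 730. Sele, which encodes the selectin of activated endothelium, had no read in any library. St3gal6, a sialyltransferase, fell from 783.9 ± 49.6 to 347.5 ± 42.6. Tpst2, the more abundant tyrosine sulphation gene (3842 ± 97.7 and 3733 ± 235), St3gal4 (1111 ± 46.2 and 1098 ± 39.3) and Fut4 (52 ± 20.4 and 56.3 ± 12.1) did not pass. Gcnt1, which builds the core of the same sugars, was higher (2763 ± 103 to 3845 ± 252, log2 change 0.48), but was not called with quantile normalization (0.03).

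In the list of the SLAM family and its SAP adaptors, 3 of 8 tested were lower and 0 higher by limma (37.5% called, against 65.9% of all genes, of which 33.1% were lower; median −0.72). At an unadjusted p under 0.05, 0 were higher, and edgeR and DESeq2 also called 0 higher, with 2 and 3 lower. The 3 that fell are neighbours of Cd48 on chromosome 1. So are genes of the list that did not pass, among them Slamf7 (start 49 kb from that of Cd48) and Cd84 (158 kb). Slamf1, Cd244a and Slamf7 rest on few reads. Ly9, whose start lies 93 kb from that of Cd48, fell 2.48-fold from 659.6 ± 32.4 to 265.8 ± 24.3, and Slamf1, at 86 kb, fell from 25.3 ± 7.86 to 6.16 ± 2.58. Cd244a, the receptor for CD48, had 5.64 ± 2.34 in Control and no read with toyocamycin, and Cd84 did not pass (791.6 ± 56.2 and 723.8 ± 0.246). Among 11 other integrin subunits 27.3% were called. Itga7 (200.2 ± 2.36 to 52.5 ± 0.307) and Itga10 (59.5 ± 5.82 to 17.4 ± 10.9) fell. Itgb8, which joins alphaV in a receptor that activates TGF-beta, rose 2.12-fold from 242.4 ± 54.6 to 514.9 ± 15.9.

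Among 26 tested immunoglobulin and nectin partners, 6 were higher and 3 lower (34.6% called, against 65.9% of all genes; median −0.02). Cdh17, a cadherin, rose 6.95-fold from 12.4 ± 4.74 to 86.5 ± 16.4, and Jam3 fell 3.51-fold from 56.8 ± 17.1. Tigit, an inhibitory receptor that shares CD155 with CD226 and CD96, rose from 2349 ± 107 to 5079 ± 446, and Pvr, which encodes CD155, did not pass (165.4 ± 26.2 and 172.5 ± 30). Cd200 rose 2.27-fold from 15.5 ± 11.8 to 35.15 ± 13.8 in overlapping samples (adjusted p = 0.0279 by limma). That call ended with edgeR (adjusted p = 0.0522), DESeq2 (adjusted p = 0.0716), equal totals (0.97) and no mean-variance trend (adjusted p = 0.103). It also ended when Control replicate 2 (1.16), Control replicate 3 (0.89) or Toyocamycin replicate 3 (1.00) was left out. The vascular ligands of the integrins were scarce in these cells, with Madcam1 at no read and Vcam1 at 9.81 ± 4.09 in Control.

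**Figure D5:**
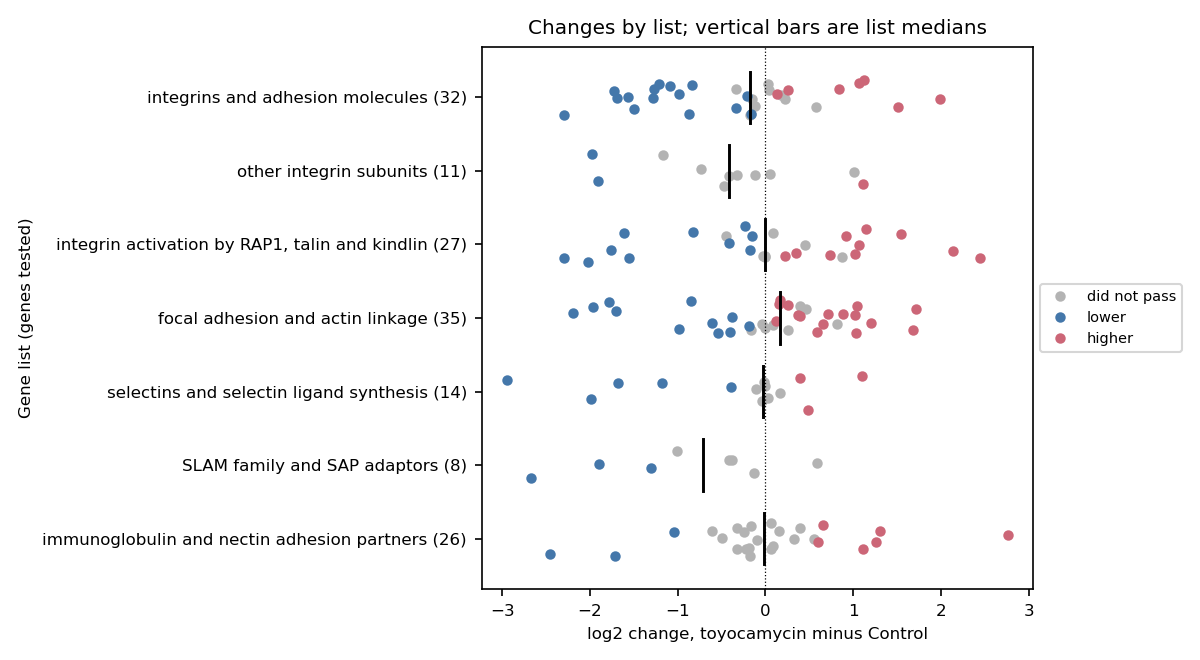
Log2 change (toyocamycin minus Control) of each tested gene of the 32 and of the 6 lists of related adhesion genes; each point is 1 gene, coloured by its limma call, and bars are list medians. The medians run from −0.72 (SLAM family) to 0.17 (focal adhesion), and each list except the SLAM family holds genes called in both directions.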

How the data were processed

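RNA was sequenced from 3 Control and 3 toyocamycin samples. The submitters' processing notes name cutadapt 4.7, FastQC and the mouse build mm10. The sources used here name no aligner, counter, strand setting or annotation. Although the name of the deposited file says FPKM, its numbers are a normalised signal. Within a sample each is a whole multiple of 1 step (100% of values whole within 0.01 reads), and they were taken as reads divided by a size factor. Replicates differed beyond sampling error in each pair of a group (chi-square 3.87 to 7.39 per degree of freedom).

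Genes with a mean of at least 1 (16223 of 25865) were tested as log2(value + 1) in limma 3.58.1 (R 4.3.3) with a mean-variance trend, two-sided. Since the values are normalised, edgeR 4.0.16 and DESeq2 1.42.0 were run on the recovered whole reads as alternatives (edgeR called 4980 of 12949 genes higher and 5329 lower). The pseudocount of 1 understates changes of low genes, and folds are ratios of group means. Exon lengths came from GENCODE M21 and coordinates from RefSeq, both GRCm38. Of the related genes, Fyb1 was matched as Fyb and Pvrig was not used here. All 32 genes are described; of each related list the 3 largest called changes with a mean of at least 10 are named, and other genes of those lists were named after their values were seen. The members, lists and pairs were chosen with earlier results of these data known.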

Additional observations from a re-analysis of the deposited data

How the results depend on the processing

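The 32 log2 changes were recomputed under 16 alternatives. For 20 genes, direction and call were the same in all that could be fitted, and 10 genes changed sign in at least 1. The number called at least 2-fold higher was 4 (17.0% of all genes), or 2 with equal totals (Itgb1 and Cd47). On the lower side, equal totals took Itgal (−1.34), Itga2 (−1.22) and Pecam1 (−1.19) past 2-fold, which they had not reached in the main fit. The share of all genes past 2-fold with equal totals is not given here. With 1 sample left out, 5 to 6 genes were higher and 14 to 16 lower, where 31.1% to 32.5% of all genes were higher and 30.8% to 32.6% lower. The 13 pair ratios whose groups did not overlap kept their sign with other pseudocounts and with 1 sample left out; that of Itga4 to Itgb7 ran from 0.01 to 0.08 with 1 sample left out. Signs changed with equal totals for Itga3 (−0.32), Itga5 (−0.31), Itga6 (−0.16), Itgam (−0.00), Itgb5 (−0.09) and Icam1 (−0.22), and with quantile normalization for Icam1 (−0.26), Cd226 (0.32), Cd96 (0.16) and Thy1 (0.43). They changed with edgeR for Itga3 (−0.01) and with DESeq2 for Itgam (−0.08). With 1 sample left out, Itga3 ran from −0.04 to 0.09, Itga5 from −0.03 to 0.12, Itgam from −0.72 to 0.80 and Cd2 from −1.10 to 0.48. The sign changed for Itga3 (−0.04 without Toyocamycin replicate 2), Itga5 (−0.03 without Control replicate 3, −0.02 without Toyocamycin replicate 3), Itgam (−0.72 without Control replicate 2, −0.29 without Toyocamycin replicate 1) and Cd2 (0.18 without Control replicate 1, 0.48 without Toyocamycin replicate 2). These causes were not tested. Itgam and Cd2, at a few reads per library, are limited by depth. Deviations of same-numbered samples from their group means were hardly correlated (r = −0.00795, 0.023 and −0.0413). With 3 samples per group, these values cannot show whether same-numbered samples came from the same culture, mouse or batch. With the replicate block 7 of the 32 genes were higher and 15 lower, the same counts as in the main fit, and 32 in place of 34 related genes were lower. The share of all genes called with that block is not given here, so these counts have no background beside them.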
